A study of Mus musculus with 8 samples.

Results

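ERRα-bound chromatin was examined at 10 genes of angiogenic signalling, the growth factors *Vegfa*, *Vegfb*, *Vegfc*, *Angpt1*, *Angpt2*, *Pdgfb* and *Fgf1* and the receptors *Kdr*, *Flt1* and *Tek*. An interval was taken for a gene where the authors' annotation named that gene as the nearest one and placed the interval no more than 20 kb from its transcription start site (TSS). By this rule 46 intervals belonged to 8 of the 10 genes, of 19188 genes named anywhere in the lists. *Angpt1* and *Tek* had no interval within 20 kb in any list.

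The lists come from ChIP-seq with an ERRα antibody on gastrocnemius and soleus muscle and on liver of male C57BL/6N mice aged 2 to 3 months and killed at zeitgeber time 9. WT mice were set against littermates carrying ERRα3SA, in which 3 serines of the amino-terminal domain are replaced by alanine throughout the body, so that the receptor cannot be phosphorylated there. Chromatin from muscle of 5 mice or liver of 2 mice was pooled for each genotype, and 3 immunoprecipitations, by the sample labels, or 4, by the study's methods, were combined into 1 library. Each genotype and tissue therefore has 1 list, no difference between lists has a replicate check, and no test was made.

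ERRα is an orphan nuclear receptor that binds the estrogen-related receptor response element (ERRE), TCAAGGTCA, mostly as a regulator of mitochondrial and fuel metabolism. VEGF-A signals through KDR on endothelial cells to drive vessel sprouting, whereas FLT1 binds VEGF-A and VEGF-B and limits the free ligand. Angiopoietins 1 and 2 act on the receptor TEK, which steadies or loosens vessels, and PDGF-B recruits pericytes to new vessels. Muscle fibres and hepatocytes make VEGF-A, while KDR, FLT1 and TEK are made mainly by endothelium, which is a minority of the cells in either tissue. In such bulk chromatin, binding in fewer cells and weaker binding per cell cannot be told apart.

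The lists held 25427 intervals in WT muscle, 50647 in ERRα3SA muscle, 21813 in WT liver and 29040 in ERRα3SA liver. Each interval has a score, a whole number of at least 30 whose scale is not given in the sources used here. Scores are used only to rank intervals within a list, with ties given the best rank, so a rank of 32824 in ERRα3SA muscle is the lowest score, 30, shared by 17824 intervals. The lists carry no read numbers and their depth is unknown. Positions, partners and motif windows refer to interval centres, which are not summits and in wide intervals can lie far from one. Of 10 endothelial marker genes, 7 had an interval within 20 kb in WT muscle, 7 in ERRα3SA muscle, 3 in WT liver and 6 in ERRα3SA liver. Of 10 muscle markers the numbers were 7, 8, 5 and 6, and of 10 liver markers 3, 4, 4 and 5, with *Alb*, *Tf*, *Fgb* and *Cps1* in no list. Beside these counts, 45.1%, 63.5%, 39.2% and 49.2% of all genes named in the lists had such an interval, in the same order. Binding near a marker is not its expression, and these counts do not check the tissue labels.

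In muscle, 6 of the 10 genes had an interval in WT and 8 in ERRα3SA. The shares among all genes named in the lists were 45.1% and 63.5%. In liver, 4 of the 10 had an interval in each list, though not the same 4, beside 39.2% of all genes in WT and 49.2% in ERRα3SA. Genes enter that background only through an interval, and among RefSeq protein-coding genes the shares were 33.6%, 46.6%, 29.1% and 36.6%. Against all named genes, the members' count was thus higher by under 2 genes in either muscle list and near or below the background in liver. In either genotype, 8 of 10 members had an interval in muscle (75.3% of all genes) and 5 of 10 in liver (59%). Growth factors held 43 of the 46 intervals and the receptors 3, but there are 7 growth factors and 3 receptors. *Vegfa* alone had 6, 5, 2 and 2 of the intervals in WT muscle, ERRα3SA muscle, WT liver and ERRα3SA liver.

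**Figure D1:**
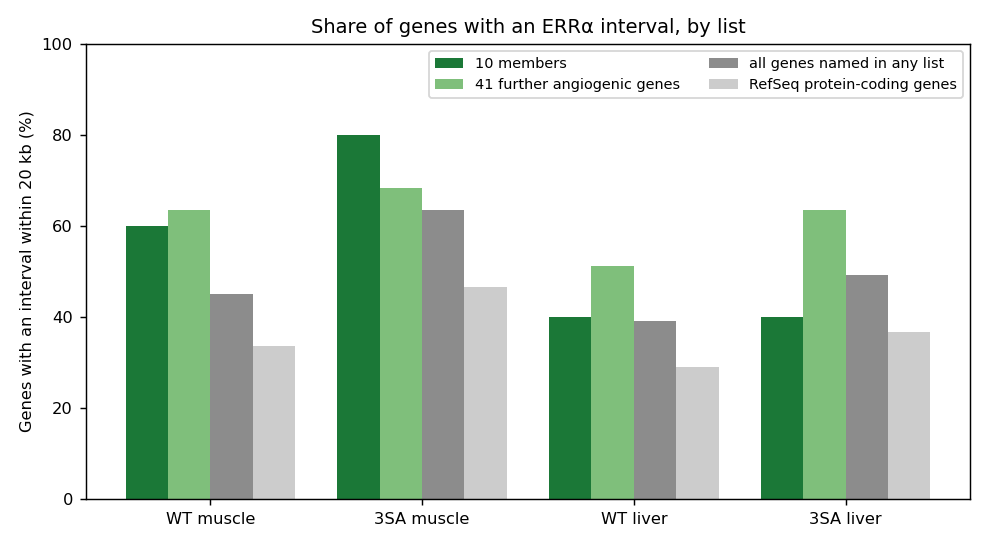
Share of genes (%) with at least 1 ERRα interval within 20 kb in each list, for the 10 members, for 41 further angiogenic genes, for all genes named in any list and for RefSeq protein-coding genes. Members with an interval numbered 6, 8, 4 and 4 of 10 from left to right.

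*Vegfa* on chromosome 17 was the best-ranked member. It was present in all 4 lists, with 6 intervals in WT muscle, 5 in ERRα3SA muscle and 2 in either liver list. Its best interval lay in intron 1 each time, with its centre 2359 to 2983 bp downstream of the outer TSS. It covered chr17:46028433-46031302 in WT muscle, with a score of 326 and rank 257 (top 1.01% of the list). In ERRα3SA muscle it covered chr17:46028056-46031980, with a score of 788 and rank 151 (top 0.298%). In WT liver it covered chr17:46028358-46030915 (score 411, rank 563, top 2.58%), and in ERRα3SA liver chr17:46027868-46030921 (score 547, rank 623, top 2.15%). The centres of the WT and ERRα3SA intervals were 150 bp apart in muscle and 242 bp apart in liver. The same stretch of intron 1 was thus called in both tissues and both genotypes, as an interval 2558 to 3925 bp wide.

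The intron 1 interval held no TCAAGGTCA in any list. All 4 intervals held the same 5 copies of AAGGTCA, the core of the ERRE without its first pair of bases, and 3 of these copies matched TNAAGGTCA. The 5 copies lay between 2679 and 3581 bp downstream of the outer TSS. They are shown because they are the copies of the core in the highest-ranked member interval, read 5′ to 3′ on the forward strand of GRCm38 (*Vegfa* lies on the reverse strand), with each core in capitals on whichever strand it reads.
Vegfa intron 1, chr17:46028763-46028899: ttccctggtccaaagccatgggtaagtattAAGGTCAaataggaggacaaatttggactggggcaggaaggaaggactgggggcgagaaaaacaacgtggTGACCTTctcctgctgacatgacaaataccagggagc
Vegfa intron 1, chr17:46029231-46029500: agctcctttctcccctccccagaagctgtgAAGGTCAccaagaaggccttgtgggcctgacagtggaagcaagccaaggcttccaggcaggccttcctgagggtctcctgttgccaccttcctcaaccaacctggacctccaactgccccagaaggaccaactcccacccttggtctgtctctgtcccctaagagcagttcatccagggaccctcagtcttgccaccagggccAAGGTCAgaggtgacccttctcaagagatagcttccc
Vegfa intron 1, chr17:46029665-46029731: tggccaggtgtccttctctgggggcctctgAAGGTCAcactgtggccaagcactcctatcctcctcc

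A second *Vegfa* interval was also called in all 4 lists, in intron 2 by the annotation and 1218 to 1255 bp upstream of the inner TSS. In WT muscle it covered chr17:46026032-46026805 with a score of 118 (rank 951, top 3.74%), and in ERRα3SA muscle chr17:46026049-46026732 with a score of 237 (rank 824, top 1.63%). In WT liver it covered chr17:46026108-46026677 with a score of 143 (rank 2403, top 11.0%), and in ERRα3SA liver chr17:46025976-46026787 with a score of 222 (rank 2298, top 7.91%). Centres of the genotypes lay 28 bp apart in muscle and 11 bp apart in liver. This interval held 1 core, on the reverse strand at chr17:46026463-46026469, which lay 48, 76, 74 and 85 bp from the centres in the order of the lists above. It is shown in the same way, being the only core in this interval.
Vegfa intron 2, chr17:46026433-46026499: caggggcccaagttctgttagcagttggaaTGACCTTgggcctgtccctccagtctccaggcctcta

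A further *Vegfa* site, upstream of the gene, was called in muscle alone. It covered chr17:46036440-46036825 in WT (score 50, rank 4017) and chr17:46036390-46036689 in ERRα3SA (score 49, rank 7851), with centres 93 bp apart. Its 1 core lay 79 bp from the centre in WT and 14 bp in ERRα3SA.
Vegfa upstream, chr17:46036520-46036586: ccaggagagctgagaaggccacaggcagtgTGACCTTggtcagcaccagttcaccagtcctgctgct
The remaining *Vegfa* intervals were lower in their lists and had no partner within 300 bp in the other genotype. WT muscle had intervals at chr17:46027180-46027877 (score 30), chr17:46031714-46032416 (score 42, over the 5′ UTR) and chr17:46038968-46039606 (score 30). The wide intron 1 interval of ERRα3SA muscle reached into the second of these. ERRα3SA muscle had intervals at chr17:46018639-46019293 (score 32, an intron) and chr17:46013583-46013928 (score 36, past the gene's end).

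**Figure D2:**
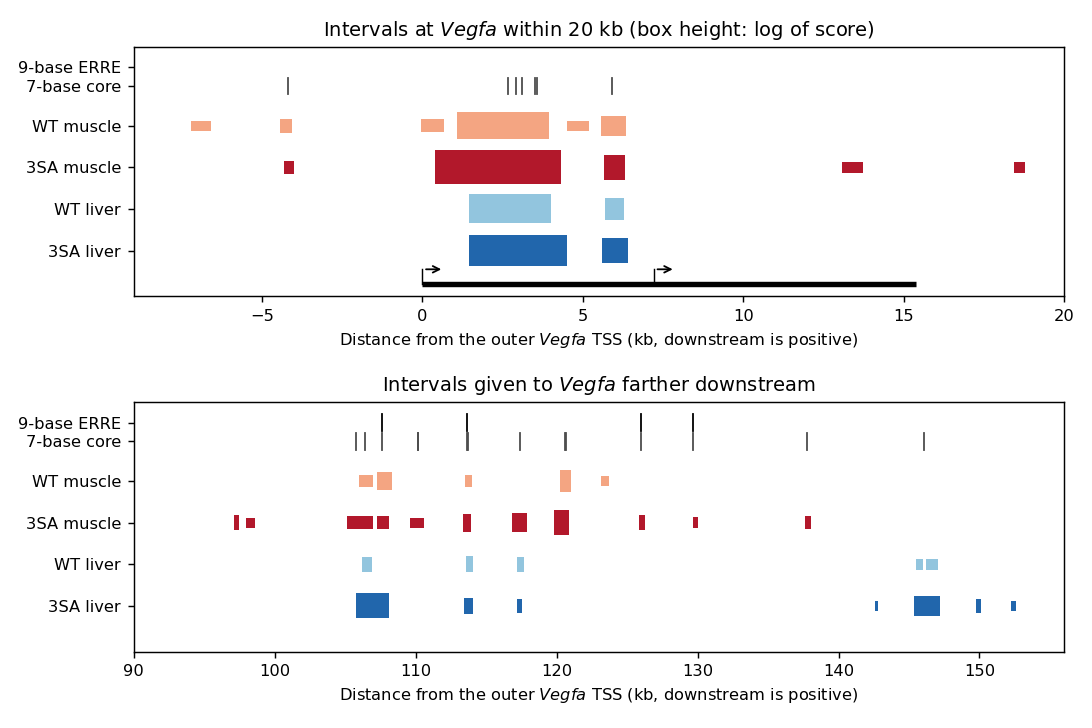
Intervals given to *Vegfa* in the 4 lists, by distance from the outer TSS in kb (upper panel, the gene as a black bar with arrows at its TSSs, and lower panel, the downstream region). Box height follows the log of the score, and ticks mark each 7-base core AAGGTCA and each 9-base ERRE TCAAGGTCA inside an interval. The intron 1 and intron 2 intervals recur in all 4 lists, and no 9-base ERRE is marked in the upper panel.

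*Vegfb*, whose product binds FLT1, was present in both muscle lists and in ERRα3SA liver, but not in WT liver. One of its sites was in intron 6, at chr19:6984644-6985637 in WT muscle (score 49, rank 4057, top 16.0%), at chr19:6984670-6985070 in ERRα3SA muscle (score 35, rank 29571, top 58.4%) and at chr19:6984566-6985066 in ERRα3SA liver (score 68, rank 8754, top 30.1%). These intervals held the only TCAAGGTCA among the 46 intervals given to a member, on the reverse strand at chr19:6984765-6984773. It lay 371 bp from the centre of the WT muscle interval, 100 bp from that of ERRα3SA muscle and 46 bp from that of ERRα3SA liver. The core of this element is soft-masked as repeat sequence in the RefSeq genome, and the annotation of the ERRα3SA liver interval names an ID_B1 SINE. The core is in capitals here, as above.
Vegfb intron 6, chr19:6984735-6984801: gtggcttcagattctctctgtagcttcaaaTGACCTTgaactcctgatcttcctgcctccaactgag

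The other *Vegfb* site covered the TSS, beside the end of the neighbouring gene *Dnajc4*. It was called at chr19:6987128-6987803 in WT muscle (score 42, rank 6260), at chr19:6987037-6987767 in ERRα3SA muscle (score 30, rank 32824) and at chr19:6986920-6987864 in ERRα3SA liver (score 96, rank 6120, top 21.1%). ERRα3SA muscle had 1 further interval, over exon 3 at chr19:6986144-6986494 (score 36, rank 19604, top 38.7%), which was its best-ranked *Vegfb* interval. *Vegfb* lies in a dense gene region, and other intervals within 20 kb of its TSS were given to *Fkbp2*, *Dnajc4*, *Trpt1*, *Plcb3* and *Ppp1r14b*, 6 in WT muscle, 6 in ERRα3SA muscle, 3 in WT liver and 6 in ERRα3SA liver. The highest of them lay at the *Fkbp2* start, about 7 kb from the *Vegfb* TSS, at rank 402 in WT muscle, 864 in ERRα3SA muscle, 1644 in WT liver and 766 in ERRα3SA liver. In each of the 3 lists with a *Vegfb* interval, it outranked them all. TCAAGGTCA was present in the central 300 bp of the *Fkbp2* interval in either liver list and of a *Trpt1* interval in either ERRα3SA list.

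*Vegfc*, the ligand best known for lymphatic vessels, had 1 interval in all, in ERRα3SA muscle at chr8:54076860-54077198. It was a promoter interval at -503 bp from the TSS, and its score of 30 was the lowest in the list.

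*Angpt2*, the vessel-destabilising ligand of TEK, had exactly 1 interval in each of the 4 lists, and no pair of them overlapped. The WT muscle interval, chr8:18735147-18735513 in intron 1, scored 57 (rank 2872, top 11.3%). The ERRα3SA muscle interval, chr8:18738965-18739453, was also in intron 1 and scored 30. In WT liver an interval at chr8:18728712-18729134 in intron 1 scored 33 (rank 16370, top 75.0%). In ERRα3SA liver an interval at chr8:18743421-18743866, upstream of *Angpt2* and inside an intron of *Mcph1*, scored 37 (rank 18865, top 65.0%). The centres of the genotypes were 3879 bp apart in muscle and 14721 bp apart in liver. *Angpt2* therefore counts as bound in all 4 lists by gene while sharing no site between any of them. Of all loci of overlapping intervals within 20 kb, 77.4% were in 1 list only. How many other genes present in all 4 lists share no site was not counted. None of the 4 intervals held the core.

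*Pdgfb* was present in both muscle lists and in WT liver. Most of its intervals formed a cluster at -10433 to -12584 bp from the annotated TSS, where WT muscle had chr15:80024971-80025511 and chr15:80026096-80027558, both with a score of 38 and rank 9931 (top 39.1%). ERRα3SA muscle had chr15:80024839-80026165 (score 49, rank 7851, top 15.5%) and chr15:80026531-80028006 (score 82, rank 3101, top 6.12%). WT liver had chr15:80027230-80027555 (score 44, rank 9851, top 45.2%), and ERRα3SA liver had none. The centres of the outer intervals of WT and ERRα3SA muscle were 442 bp apart, beyond the 300 bp allowed for a shared site, although the intervals overlapped. Outside the cluster, WT muscle had a 5′ UTR interval at chr15:80013603-80014539 (score 30). ERRα3SA muscle had an interval upstream of the annotated TSS at chr15:80021770-80022779 (score 36). RefSeq gives *Pdgfb*, on the reverse strand, a longer extent that reaches chr15:80024614. The latter interval lay within this extent, and the cluster lay just past its outer end. Intervals within 20 kb that were given to *Mir7213*, which lies within the *Pdgfb* region, numbered 2 in ERRα3SA muscle and 1 in WT liver.

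The *Pdgfb* cluster held 3 cores and no TCAAGGTCA. The third core below is soft-masked as repeat sequence, and the annotation of the ERRα3SA muscle interval that holds it names a URR1A DNA repeat. The second core below lay inside an interval of all 3 lists, 514 bp from the centre in WT muscle, 72 bp in ERRα3SA muscle and 52 bp in WT liver, while the others lay in ERRα3SA muscle intervals alone. They are shown to mark which of the cores the lists had in common, again on the forward strand with the core in capitals.
Pdgfb upstream, chr15:80025490-80025556: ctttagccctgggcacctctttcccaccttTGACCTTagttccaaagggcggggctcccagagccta
Pdgfb upstream, chr15:80027307-80027373: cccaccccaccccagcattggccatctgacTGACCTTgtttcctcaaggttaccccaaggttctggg
Pdgfb upstream, chr15:80027596-80027662: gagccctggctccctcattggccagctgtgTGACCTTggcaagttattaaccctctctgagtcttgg

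*Fgf1*, a broadly acting fibroblast growth factor, was present in all 4 lists through different sites. Its best muscle interval lay at -4573 to -4667 bp from the annotated TSS, within the longer extent that RefSeq gives the gene. It covered chr18:38922873-38923859 in WT muscle (score 128, rank 851, top 3.35%) and chr18:38922814-38923731 in ERRα3SA muscle (score 310, rank 585, top 1.16%), with centres 93 bp apart. ERRα3SA liver had it too, at chr18:38922912-38923373 (score 84, rank 7095, top 24.4%), and WT liver did not. A second site, 5758 to 6062 bp downstream of the TSS, was called at chr18:38912749-38913110 in WT liver (score 89, rank 4147, top 19.0%), at chr18:38912772-38913110 in ERRα3SA liver (score 54, rank 12537, top 43.2%) and at chr18:38912295-38912980 in ERRα3SA muscle (score 42, rank 11987, top 23.7%). WT muscle lacked this one. In WT, muscle and liver thus had no *Fgf1* site in common, whereas both ERRα3SA lists had intervals at both of these sites, which at the downstream site overlapped with centres more than 300 bp apart. A site 11 kb downstream was called in WT muscle (score 30) and ERRα3SA liver (score 33), and a promoter interval at -964 bp in ERRα3SA muscle alone (score 30). The upstream and the downstream site each held 2 copies of the core. WT liver and ERRα3SA liver each had 1 further interval within 20 kb that was given to *Gm5820*, a gene annotated across this region.

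The receptors had few intervals within 20 kb, and none in liver. Of these 3 genes, *Kdr* and *Flt1* had an interval in muscle, where 75.3% of all genes had one in either genotype. In liver that share was 59%, and 3 genes are too few to set the receptors apart. *Kdr*, the main signalling receptor for VEGF-A, had 1 interval, in ERRα3SA muscle in intron 10 at chr5:75961852-75962844 (score 36, rank 19604, top 38.7%). *Flt1* had 1 interval in each muscle list, both in intron 1 with the lowest score of 30. That of WT muscle, chr5:147725087-147725427, was in a CpG island 731 bp from the TSS, and that of ERRα3SA muscle, chr5:147715007-147715982, lay 10494 bp from it, with centres 9762 bp apart. *Tek* had no interval, nor had *Angpt1*, which encodes its activating ligand. None of the 3 receptor intervals held the core.

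**Figure D3:**
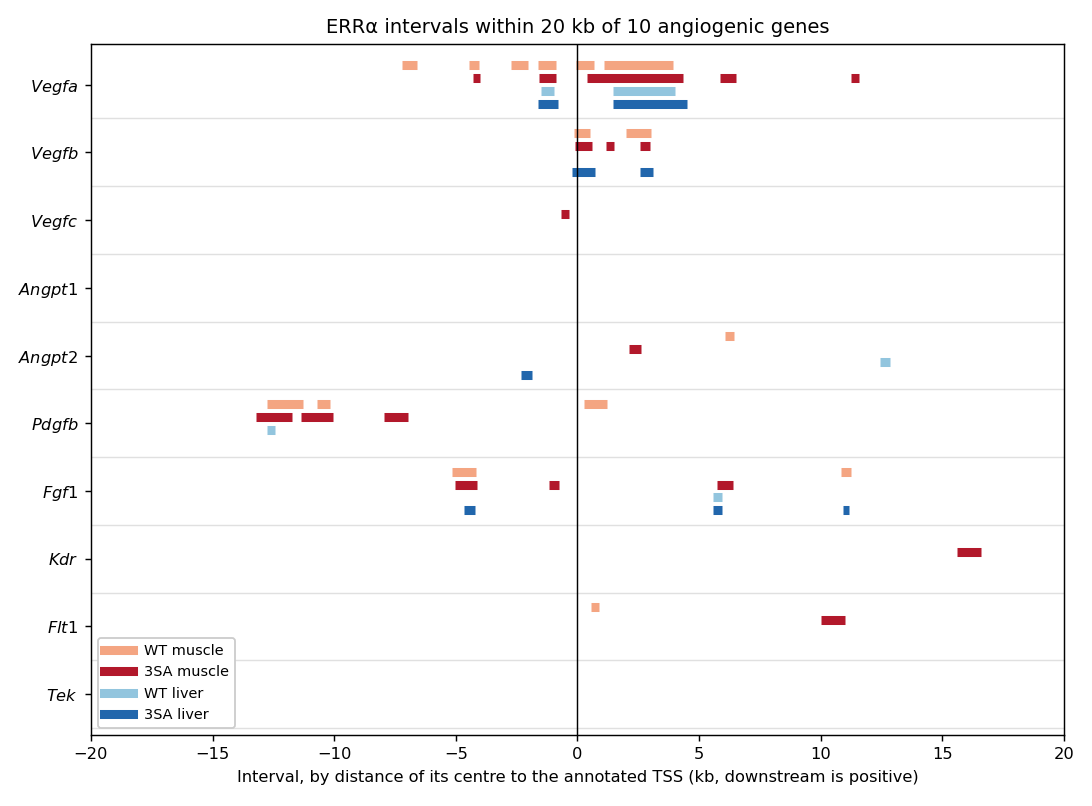
Intervals of the 10 genes in the 4 lists, drawn at their width and by the distance of the centre to the nearest annotated TSS in kb (*Vegfa* has more than 1 TSS, and each interval is placed by its nearest). *Vegfa* intervals align across the lists, the 4 *Angpt2* intervals do not, and *Angpt1* and *Tek* are empty.

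By genotype, *Vegfa*, *Vegfb*, *Angpt2*, *Pdgfb*, *Fgf1* and *Flt1* had an interval in both muscle lists, 6 of 10 beside 33.3% of all genes. *Vegfc* and *Kdr* had one in ERRα3SA muscle alone, 2 of 10 beside 30.2%, and no member had one in WT muscle alone, where the share of all genes was 11.8%. When the ERRα3SA muscle list was shortened to its best-scoring 25427 intervals, as many as WT muscle had, it kept 4 members, *Vegfa*, *Vegfb*, *Pdgfb* and *Fgf1*. *Vegfc* and *Kdr* then had no interval in either muscle list, and *Angpt2* and *Flt1* had one in WT muscle alone. The best scores of *Vegfb* and *Kdr* were both 36, tied at the limit, so that the order of the list decided that *Vegfb* stayed and *Kdr* did not. In liver, *Vegfa*, *Angpt2* and *Fgf1* had an interval in both genotypes, 3 of 10 beside 29.3%. *Vegfb* had one in ERRα3SA alone (1 of 10, beside 19.9%) and *Pdgfb* in WT alone (1 of 10, beside 9.84%).

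By tissue, 5 of the 10 genes had intervals in muscle and in liver, beside 45.8% of all genes. *Vegfc*, *Kdr* and *Flt1* had them in muscle alone (3 of 10, beside 29.5%), and no member in liver alone, where the share was 13.2%. *Vegfa*, *Angpt2* and *Fgf1* were present in all 4 lists (3 of 10, beside 16% of all genes). All 3 genes seen in muscle alone had a best score under 50.

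Shared sites were counted as intervals whose centres lay within 300 bp. In muscle, 7 of 15 WT and 7 of 18 ERRα3SA member intervals had a partner in the other genotype, beside 23.4% and 12.9% of all intervals within 20 kb. In liver, 3 of 5 and 3 of 8 had one, beside 49.2% and 34.2%. In muscle the shared sites were 3 at *Vegfa*, 2 at *Vegfb*, 1 at *Pdgfb* and 1 at *Fgf1*, and in liver 2 at *Vegfa* and 1 at *Fgf1*. Without *Vegfa*, 4 of 9 WT and 4 of 13 ERRα3SA muscle intervals were shared, and 1 of 3 and 1 of 6 in liver. By shared bases in place of centres, 9 of 15 and 8 of 18 muscle intervals overlapped one of the other genotype (30.6% and 16.9% of all), and 3 of 5 and 3 of 8 liver intervals did (55.9% and 38.9%). A partner in the other tissue was present for 5 of 15 intervals in WT muscle, 6 of 18 in ERRα3SA muscle, 4 of 5 in WT liver and 5 of 8 in ERRα3SA liver, beside 21.5%, 18.6%, 31.2% and 27.6%. Merged by shared bases, the 46 intervals made 24 loci, of which 15 were in 1 list, 2 in 2 lists, 5 in 3 lists and 2 in all 4. Among all 47007 loci within 20 kb, the shares were 77.4%, 14.3%, 4.57% and 3.73%. Both loci in all 4 lists were those of *Vegfa* intron 1 and intron 2.

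By rank, the members' intervals had a median position of top 24.6% in WT muscle, beside 40.2% for all intervals within 20 kb. The medians were 38.7% and 38.7% in ERRα3SA muscle, 19.0% and 45.2% in WT liver, and 27.3% and 44.8% in ERRα3SA liver. *Vegfa* supplied 6, 5, 2 and 2 of the intervals in the 4 lists, and the best rank in each. Without it, the middle one of the other 9 intervals in WT muscle stood at top 39.1%. That of the other 3 in WT liver stood at top 45.2%, so both were near all intervals within 20 kb. The other 6 in ERRα3SA liver ranged from top 21.1% to 80.3%. A score of at least 100 was reached at *Vegfa* and *Fgf1* in either muscle list (2 of 10 genes, beside 3.74% of all genes in WT and 7.17% in ERRα3SA) and at *Vegfa* alone in either liver list (1 of 10, beside 10.4% and 15.5%). The lowest score of 30 was held by 5 of 15 intervals in WT muscle, 5 of 18 in ERRα3SA muscle and none in liver, beside 33.0%, 34.3%, 0.0624% and 0.472% of all intervals within 20 kb in the 4 lists.

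**Figure D4:**
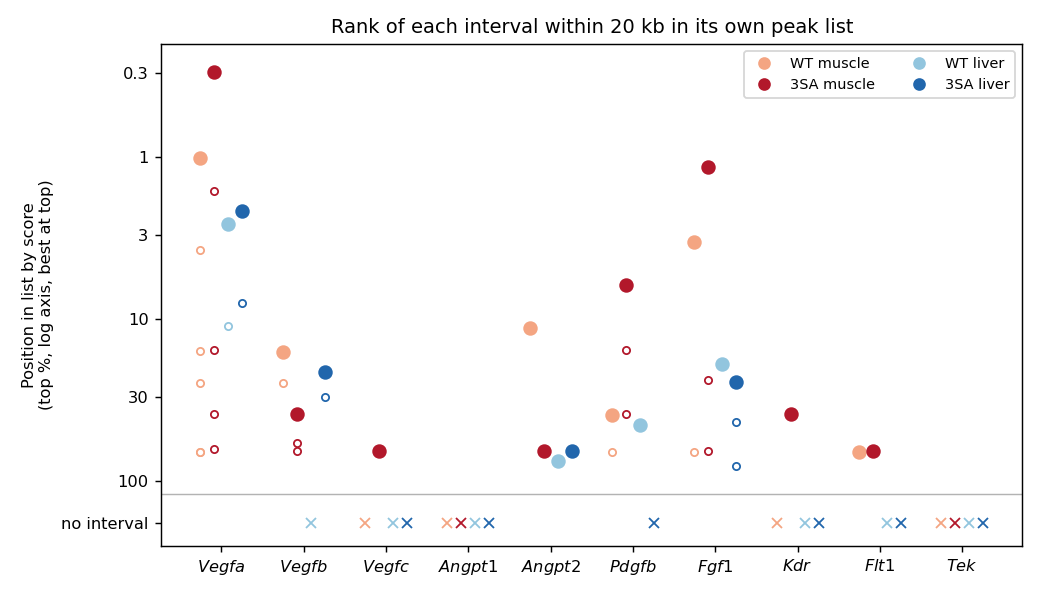
Position of each member interval in its own list by score (top %, log axis, best at the top). Filled points are the best interval of a gene, open points the others, and crosses mark a gene without an interval. *Vegfa* is the best-ranked member in every list, from top 0.298% in ERRα3SA muscle to top 2.58% in WT liver.

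By position, 28 of the 46 intervals were annotated to introns, 10 as intergenic, 3 to a transcript end, 2 to a promoter, 2 to a 5′ UTR and 1 to an exon. The transcript end was that of the neighbour *Dnajc4*, and the 3 intervals were those that covered the *Vegfb* TSS. This split was not set beside that of all intervals within 20 kb. Within 1 kb of the TSS lay 4 of 15 intervals in WT muscle and 3 of 18 in ERRα3SA muscle, near the shares of all intervals within 20 kb, 26.2% and 17.4%. In liver 0 of 5 and 1 of 8 did, beside 20.6% and 22.6%. Nothing lay between the outermost member interval, that of *Kdr* at 16080 bp, and the limit of 20 kb. The nearest intervals beyond it were at *Vegfa*, 20094 bp upstream in ERRα3SA liver (score 37) and 21555 bp upstream in ERRα3SA muscle (score 30).

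TCAAGGTCA was searched on both strands in the central 300 bp of each interval. It was found in 0 of 15 member intervals in WT muscle, 1 of 18 in ERRα3SA muscle, 0 of 5 in WT liver and 1 of 8 in ERRα3SA liver, beside 4.45%, 4.84%, 15.2% and 14.9% of all intervals within 20 kb. Both matches were the *Vegfb* element printed above. The core AAGGTCA, which every TCAAGGTCA contains, was found in 2 of 15, 6 of 18, 4 of 5 and 5 of 8, beside 13.8%, 15.2%, 35.8% and 35.5%. These windows overlap between lists, so the same copies were counted several times. By locus, 7 of the 9 member loci seen in several lists held a core somewhere (59.6% of all such loci), and 0 of the 15 seen in 1 list did (16.9%). Loci of several lists were wider, with a median of 945 bp against 446 bp among the members and 843 bp against 389 bp among all. In the RefSeq promoter table (GRCm38, 250 bases before to 50 after a start), 7 promoters of *Vegfa*, *Vegfb*, *Vegfc*, *Kdr*, *Flt1* and *Tek* were matched. None held the core, which 4.72% of all 32851 promoters hold.

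Of 41 further genes of vessel growth, 26 had an interval within 20 kb in WT muscle, 28 in ERRα3SA muscle, 21 in WT liver and 26 in ERRα3SA liver, and 7 had none in any list. The shares of all genes are those given for the members above. The best-ranked in WT muscle were *Pgf*, a further VEGF-family ligand of FLT1 (score 178, rank 559), the FGF receptor gene *Fgfr3* (score 127, rank 862) and *Pdgfa* (score 108, rank 1058). In ERRα3SA muscle they were *Pdgfa* (score 3388, rank 16), *Fgfr4* (score 345, rank 492) and *Pgf* (score 296, rank 617). The *Pdgfa* interval lay 19922 bp from the TSS, and the overlapping intervals of WT muscle (rank 16), WT liver (rank 12) and ERRα3SA liver (rank 9) were given to *Pdgfa* as well, at 20334, 20398 and 20278 bp, just past the limit. In WT liver the best were *Col18a1*, whose product yields endostatin (score 700, rank 222), the VEGF co-receptor gene *Nrp1* (score 278, rank 995) and *Fgfr2* (score 249, rank 1165). In ERRα3SA liver they were *Col18a1* (score 1153, rank 142), *Nrp1* (score 287, rank 1646) and *Epas1*, encoding HIF-2α (score 229, rank 2248). Within 20 kb, *Vegfa* outranked all 41 in WT muscle, whereas *Pdgfa* in ERRα3SA muscle and *Col18a1* in both liver lists stood above it. The *Pdgfa* interval just past the limit ranked above *Vegfa* in the other 3 lists too.

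The presence pattern of *Vegfa*, an interval in all 4 lists, was held by 3074 genes. Of the 41 further genes, 16 had it: *Pgf*, *Nrp1*, *Tie1*, *Pdgfa*, *Pdgfrb*, *Fgfr2*, *Fgfr3*, *Fgfr4*, *Hif1a*, *Epas1*, *Notch1*, *Acvrl1*, *Nos3*, *Col18a1*, *Efnb2* and *Adm*. These include *Pdgfrb*, a receptor gene for PDGF-B, and 3 FGF receptor genes. The pattern of *Vegfc* and *Kdr*, an interval in ERRα3SA muscle alone, was held by 2772 genes, 14.4% of all. Of the 41 further genes, those with it were *Flt4*, encoding the receptor for VEGF-C, *Pdgfra*, encoding the other PDGF receptor, and *Thbs2*. *Fgfr1* had an interval in ERRα3SA muscle and WT liver.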

How the data were processed

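ERRα ChIP-seq was made from WT and ERRα3SA muscle and liver, 1 library each with an input. The authors used Trimmomatic 0.36 for trimming and BWA 0.7.12 for alignment to mm10, removed duplicates with Picard 2.0.1, called peaks with MACS2 2.1.1.20160309 against input and annotated them with HOMER 4.9.1, versions as in the submitters' processing notes. The deposited lists give each interval a score of unstated scale, CpG and GC content as fractions, and the distance to the nearest TSS. Inputs have no list and were not used here.

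Intervals were ranked within lists, and partners and motifs were sought with Python 3.11.15, pandas 2.3.3, numpy 2.4.6 and pysam 0.24.0 on GRCm38.p6, whose GC content equalled the deposited fraction within 0.005 for 2000 of 2000 intervals drawn from each list. Partner and motif searches were tested on simulated data. The members and gene lists were chosen with earlier results of these data known. Named genes were all members, the 3 best-ranked of the further genes in each list, genes given intervals within 20 kb of a member TSS, and further genes with the pattern of *Vegfa*. Alternatives were other scores, distances, list lengths, partner rules, motifs and TSS-centred assignment. No depth, and hence no counting interval, could be given.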

Additional observations from a re-analysis of the deposited data

How the results depend on the processing

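No paired analysis was possible because each genotype and tissue has 1 library and the results come from no test. In lists order WT muscle, ERRα3SA muscle, WT liver and ERRα3SA liver, members with an interval numbered 6, 8, 4 and 4. At a score of at least 50 they were 3, 3 and 2 in the lists other than ERRα3SA liver, and at a score of at least 100 they were 2, 2, 1 and 1. Within 5 kb they fell to 5 in ERRα3SA muscle and 1 in WT liver, within 50 kb they rose to 7 in ERRα3SA liver, and at any distance to 10 in WT muscle and 8 in ERRα3SA liver. With lists of equal length, ERRα3SA muscle had 4. Member intervals, 15, 18, 5 and 8, numbered 5, 4 and 3 in the lists other than ERRα3SA liver at a score of at least 50, 3, 3, 2 and 2 at 100, 10 in ERRα3SA muscle and 2 in WT liver within 5 kb, 23, 31, 8 and 16 within 50 kb, and 35, 60, 15 and 32 at any distance. They were 10 in ERRα3SA muscle with lists of equal length, and 10 in WT liver and 15 in ERRα3SA liver when intervals given to neighbouring genes were added.

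Members in both genotypes numbered 6 in muscle, but 2 at a score of at least 50 and 2 at 100, 3 within 5 kb and 10 at any distance. In liver they numbered 3, but 1 at a score of at least 100, 1 within 5 kb, 5 within 50 kb and 5 at any distance. Members in ERRα3SA alone numbered 2 in muscle, but 1 at a score of at least 50, 0 at 100, 1 within 50 kb, 0 at any distance and 0 with lists of equal length. In liver they numbered 1, but 0 at a score of at least 100, 3 within 5 kb, 2 within 50 kb, 3 at any distance and 0 when neighbours' intervals were added. Members in both tissues numbered 5, but 2 at a score of at least 50, 1 at 100, 8 within 50 kb and 9 at any distance. Shared intervals in ERRα3SA muscle numbered 7, but 4 with centres within 100 bp and 3 at a score of at least 50 or 100. Intervals with the motif, 0, 1, 0 and 1, numbered 2, 6, 4 and 5 with AAGGTCA, 2 in WT liver and 3 in ERRα3SA liver with TNAAGGTCA, 1 in WT muscle over the whole interval, and 0 in ERRα3SA muscle at a score of at least 50. The other 53 values were within 1.5 times the values reported. Which members count as bound thus depends on the score and the distance allowed, *Fgf1* in liver included, and depth could not be assessed.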

Other observations

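Beyond 20 kb, 96 further intervals were given to the 10 genes, 20 in WT muscle, 42 in ERRα3SA muscle, 10 in WT liver and 24 in ERRα3SA liver, and 42 of them to *Vegfa*. An intergenic cluster lay downstream of *Vegfa*, which, from 90064 to 145221 bp from the nearest *Vegfa* TSS, held 5 intervals in WT muscle, 11 in ERRα3SA muscle, 5 in WT liver and 7 in ERRα3SA liver. Its best intervals in the muscle lists overlapped, although their centres were more than 300 bp apart, and lay at chr17:45911346-45912108 in WT (score 157, rank 659, top 2.59%) and chr17:45911492-45912577 in ERRα3SA (score 214, rank 928, top 1.83%). Neither liver list had an interval there. A neighbouring site was in all 4 lists, at chr17:45918354-45918865 in WT muscle (score 42), chr17:45918429-45919037 in ERRα3SA muscle (score 91), chr17:45918301-45918786 in WT liver (score 75) and chr17:45918330-45918929 in ERRα3SA liver (score 68). Unlike the intervals within 20 kb of *Vegfa*, it held a TCAAGGTCA, on the reverse strand at chr17:45918711-45918719, and a second core. Of these 2 cores, 1 is soft-masked as repeat sequence. The forward strand of GRCm38 is shown with both cores in capitals. Another locus of the cluster, chr17:45924061-45927279, also had intervals in all 4 lists. It held a TCAAGGTCA at chr17:45924775-45924783, inside intervals of WT muscle, ERRα3SA muscle and ERRα3SA liver. Its ERRα3SA liver interval, chr17:45924288-45926577 (score 229, rank 2248, top 7.74%), was the best of the cluster in liver. All distances to *Vegfa* are those of the annotation, and no contact with its promoter was measured.
Vegfa downstream, chr17:45918654-45918747: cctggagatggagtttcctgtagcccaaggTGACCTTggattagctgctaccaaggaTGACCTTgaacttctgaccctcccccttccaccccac

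*Kdr* and *Angpt1*, with little or no binding within 20 kb, had intervals farther out. These were given to them as the nearest gene, and no contact with their promoters was measured. An intergenic *Kdr* site lay 107157 to 107334 bp downstream of the TSS. It was called at chr5:75870759-75871461 in ERRα3SA muscle (score 119, rank 1955, top 3.86%) and at chr5:75871094-75871449 in WT liver (score 49, rank 8204). In ERRα3SA liver it covered chr5:75870798-75871391 (score 168, rank 3231, top 11.1%), and WT muscle had none there. An *Angpt1* site at -42530 to -42609 bp was called in both liver lists, at chr15:42719326-42719846 in WT (score 69, rank 5512, top 25.3%) and at chr15:42719154-42719860 in ERRα3SA (score 194, rank 2833, top 9.76%), and in neither muscle list. Muscle had other *Angpt1* intervals. The best was in ERRα3SA at chr15:42836835-42837182, -160031 bp from the TSS (score 106, rank 2344, top 4.63%). WT muscle had 1, at 25244 bp (score 30). *Tek* had only muscle intervals, all in introns, at chr4:94780380-94781019 (score 33) and chr4:94809038-94809364 (score 36) in WT and at chr4:94776566-94777080 (score 42) in ERRα3SA. *Flt1* had 13 intervals beyond 20 kb, none of which scored above 42.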
